A study of Mus musculus with 2 samples.

Results

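The interleukin 1 system and the inflammasome were read through 10 member genes, taken by symbol from the 32285 genes of the deposited count tables. They were the ligand genes Il1a and Il1b, the antagonist gene Il1rn, the receptor genes Il1r1, Il1r2 and Il1rap, and the inflammasome genes Nlrp3, Casp1, Casp4 and Pycard. Each symbol matched 1 gene. The study implanted B16-F10 cells, a transplantable mouse melanoma line, under the skin of mice. The melanoma cells were either WT or DGAT1 knockout. DGAT1 is an enzyme that joins the last fatty acid to diacylglycerol to make triglyceride. The host immune cells carried no edit named in the labels. Each group had 3 tumours, taken at day 14, from which viable CD45+ cells were sorted for droplet single-cell RNA sequencing, with 1 library per group. The sources used here do not give host strain and age or how many clones the knockout line came from.

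With 1 library per group, and no map from cells to tumours, there was no test between the groups, and no difference below has a replicate check. The knockout library held 202946827 UMIs (unique molecule counts) and the WT library 235652476. After filtering they gave 10957 and 9052 cells, with medians of 10765 and 14088 UMIs per cell. Cells were put into classes by marker scores that used none of the members, and the UMIs of all cells of a class were added up in each library. Levels are in CPM, the usual unit in which a gene's UMIs are scaled by all UMIs of the same cells. Dgat1 was at 18.5 (95% interval 15.6 to 21.9) and 28.7 (26.8 to 30.7) CPM in the melanoma-gated cells that passed the sort, 163 and 499 cells. An edit can leave the transcript in place and the deleted part is not given, so this checks the labels only in part. Ptprc, the gene of CD45, had a UMI in 96.5% and 93.6% of the CD45+ cells analysed. Pairs of values give the knockout library, then WT. Bracketed ranges are exact 95% intervals, for counting error alone; they do not reflect that a gene's UMIs can lie in few cells.

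IL-1 alpha and IL-1 beta are the ligands of this system, and both act through a receptor made of IL1R1 and the accessory protein IL1RAP. IL1RN is a secreted antagonist that occupies the receptor without signalling, and IL1R2 is a decoy that binds ligand without a signalling tail. IL-1 beta is made as a precursor that caspase 1 cuts in the inflammasome, a complex in which the sensor NLRP3 recruits caspase 1 through the adaptor ASC, the product of Pycard, while mouse caspase 4 (also called caspase 11) senses bacterial lipopolysaccharide inside the cell. Messenger counts, as measured here, say nothing of that cutting or of release.

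Il1a and Il1b lie near each other on chromosome 2 of the mm10 build, and Pycard lies on chromosome 7. Il1a spans 129299610 to 129309972 and Il1b 129364570 to 129371139, both on the minus strand with 54597 bases between them. Pycard spans 127989708 to 127993867, also on the minus strand. The 250 bases before the start of these genes are shown because Il1a and Il1b were higher, and Pycard lower, in knockout macrophages. They come from the RefSeq promoter table for GRCm38.p6, which held all 10 members, and run 5′ to 3′ along the gene's strand at chr2:129371140-129371389, chr2:129309973-129310222 and chr7:127993868-127994117. No annotated exon lies in the first pair of windows, and an exon of Gm45205 reaches into that of Pycard.
Il1b: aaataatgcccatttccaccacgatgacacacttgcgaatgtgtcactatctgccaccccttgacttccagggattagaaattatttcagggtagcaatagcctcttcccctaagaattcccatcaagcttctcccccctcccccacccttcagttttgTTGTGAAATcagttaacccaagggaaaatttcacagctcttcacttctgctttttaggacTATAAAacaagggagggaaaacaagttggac
Il1a: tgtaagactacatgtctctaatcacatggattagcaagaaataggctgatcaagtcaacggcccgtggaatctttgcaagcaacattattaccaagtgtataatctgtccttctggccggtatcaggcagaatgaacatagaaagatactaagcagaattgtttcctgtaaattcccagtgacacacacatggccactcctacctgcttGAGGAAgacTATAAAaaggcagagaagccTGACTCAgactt
Pycard: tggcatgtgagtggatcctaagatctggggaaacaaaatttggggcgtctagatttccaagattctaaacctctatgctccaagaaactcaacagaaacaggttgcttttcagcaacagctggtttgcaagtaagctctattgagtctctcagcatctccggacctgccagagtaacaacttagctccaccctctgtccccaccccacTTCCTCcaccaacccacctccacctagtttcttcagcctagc
Capitals mark matches to 5 motifs searched on both strands, TATAAA, GGG with 5 free bases and CC for NF-kB, TTNNGNAAT for C/EBP, GAGGAA for PU.1 and TGANTCA for AP-1. TATAAA stood 31 to 26 bases before the Il1b start and 32 to 27 before the Il1a start, and 12.4% of the 32851 promoter windows of the table held these letters. The C/EBP letters stood 91 to 83 bases before Il1b (10.2% of windows held them). In Il1a the AP-1 letters stood 12 to 6 bases before the start (6.75% of windows), and the PU.1 letters 41 to 36 (23.3%). In Pycard the PU.1 letters were found on the other strand, 42 to 37 bases before the start. The NF-kB letters, in 45.8% of all windows, were in none of these windows. A match is a description of letters, not of binding.

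Il1b was first of all a neutrophil transcript. It was at 11223 (11036 to 11412) and 12890 (12609 to 13176) CPM in neutrophils, at 555 and 665 CPM in classical monocytes, and at 185 and 79.3 CPM in macrophages. Mature DCs were at 276 and 386 CPM and cDC2 at 270 and 375 CPM. CD8 T cells, at 8.20 and 5.58 CPM, stood at the level of free RNA, whose estimate came to 128% and 105% of these values. The order of these 6 classes was the same in both libraries, and mature DCs and cDC2 did not differ beyond their intervals. Il1b counts reached 215 and 248 UMIs in a single neutrophil, and the median neutrophil held 91.0 and 132 Il1b UMIs per 10000. The median monocyte held 0.726 and 0.802 per 10000, so the monocyte level came from the upper part of the class, with a 90th percentile of 15.6 and 19.3.

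**Figure D1:**
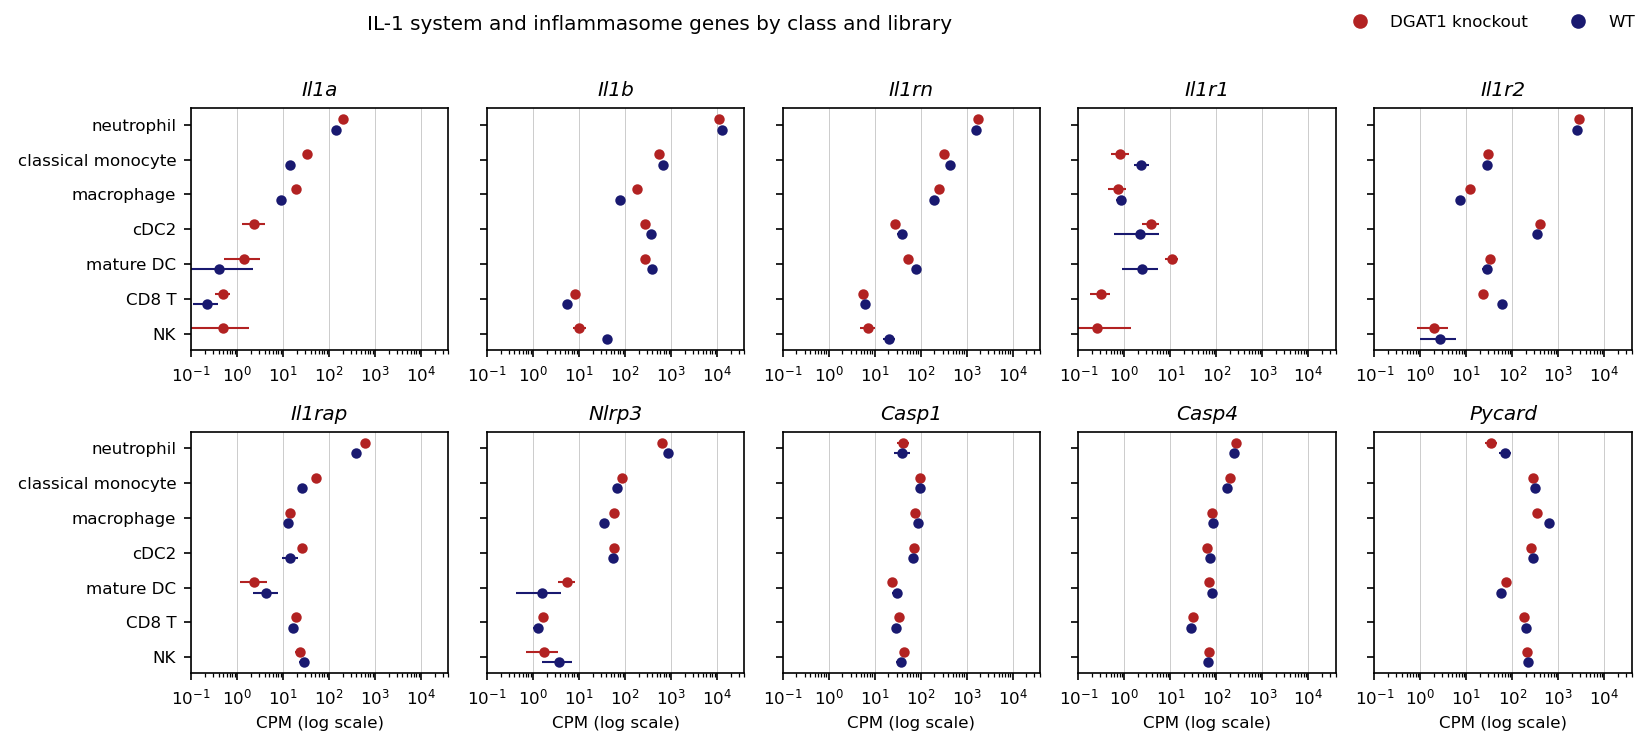
CPM of the 10 members (log axis) in 7 marker-gated classes, DGAT1 knockout in red and WT in blue, 1 library each, with exact Poisson 95% intervals; a class with 0 UMIs has no point. Il1b, Il1rn, Il1r2, Il1rap and Nlrp3 were highest in neutrophils in both libraries, and Pycard was highest in macrophages.

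Neutrophils were 2.31% of the CD45+ cells in the knockout library and 1.42% in WT. Yet they held 29.0% (28.6 to 29.4) and 27.2% (26.7 to 27.7) of all Il1b UMIs. Classical monocytes held 28.6% and 29.0%, and macrophages 11.6% and 19.0%. A further 18.9% and 10.3% lay in cells whose best marker score was under the gate. Read by clusters made without the members, 1 neutrophil cluster held 30.6% of Il1b UMIs in each library. Il1a was spread otherwise. Gated neutrophils held 9.35% and 6.66% of its UMIs, and the neutrophil cluster 12.9% and 12.7%. By clusters, cluster 0 held 66.2% and 58.5%. The leading genes of cluster 0 are Inhba, Egln3 and Pdpn, and the gate mostly called its cells monocyte or macrophage or left them unassigned. That cluster was 12.9% and 12.2% of cells, and it also held 46.1% and 44.8% of Il1rn UMIs.

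**Figure D2:**
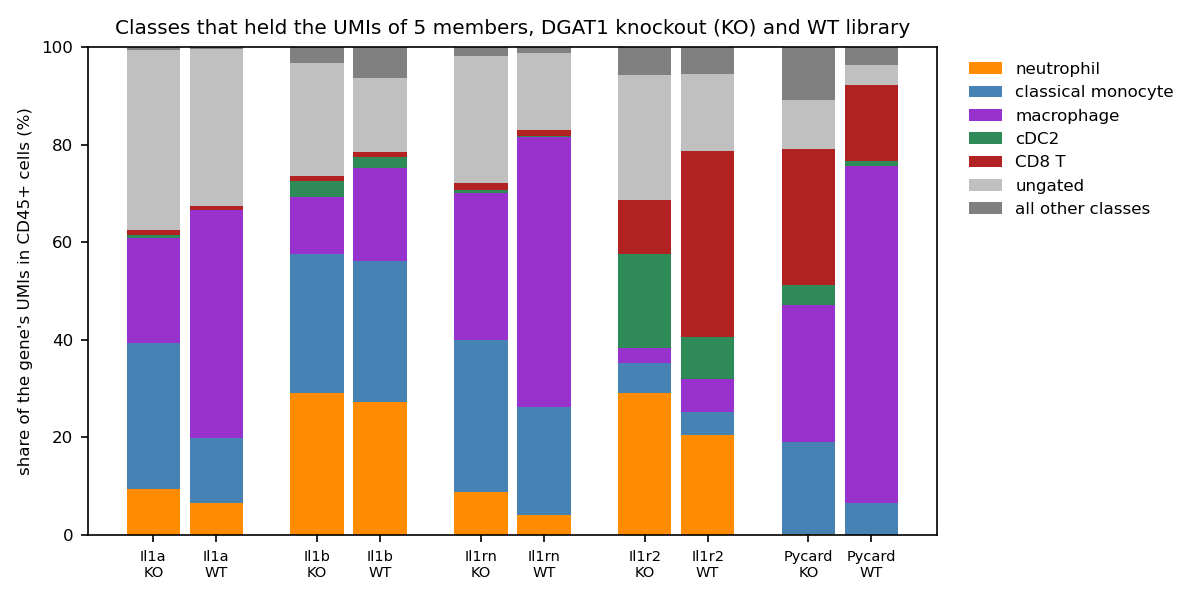
Share of each gene's UMIs in CD45+ cells (%) that each class held, for Il1a, Il1b, Il1rn, Il1r2 and Pycard, knockout (KO) and WT library side by side. Neutrophils held 29.0% and 27.2% of Il1b UMIs, and macrophages held 30.1% and 55.3% of Il1rn UMIs. Classical monocytes held 28.6% and 29.0% of Il1b UMIs and 31.3% and 22.2% of Il1rn UMIs.

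Over all CD45+ cells Il1b was at 296 and 183 CPM, a log2 ratio of knockout over WT of 0.70 (0.68 to 0.72). Il1a was at 16.7 and 8.50 CPM, a log2 ratio of 0.98 (0.88 to 1.07). Il1r2 was at 73.8 and 47.4 CPM and Il1rap at 29.0 and 17.2 CPM. These 4 members passed 1.5-fold upward, as did 7.47% of the 15040 genes measured, and Pycard, at 224 and 389 CPM, passed it downward, as did 6.87%. The libraries also differed in their mix of cells: macrophages were 14.5% and 35.7% of CD45+ cells, and classical monocytes 22.0% and 12.4%. Neutrophils were 2.31% and 1.42%, and cDC2 2.88% and 1.08%. For what follows, the class mix was each class's share of all UMIs, such as 18.6% and 43.6% for macrophages and 0.766% and 0.385% for neutrophils. With the class mix of the knockout library given to both, the Il1b log2 ratio was 0.01, and with the WT mix it was 0.27. Il1r2 came to -0.06 and -0.15 in the same way. For Il1a the values were 0.72 and 0.87, for Il1rap 0.50 and 0.38, and for Pycard -0.40 and -0.61. The surplus of Il1b and Il1r2 over all cells thus moved with the mix of classes, while those of Il1a and Il1rap and the deficit of Pycard were 0.38 or more in size with either mix.

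Within classes, a member was called higher or lower where it had at least 100 UMIs over both libraries and differed by at least 1.5-fold, a rule of size and not a test. Of the 12 classes that had 50 cells or more in both libraries, macrophages had the most calls. There, 9 of the 10 members were measured, with Il1a, Il1b, Il1r2 and Nlrp3 higher, against 5.36% of the 12119 genes measured, and Pycard lower, against 4.30%. The median log2 ratio was 0.35 over these members and -0.00 over all genes. In classical monocytes, 2 of 9 were higher (Il1a and Il1rap, against 4.62% of genes) and 0 lower (2.59%). In neutrophils 1 of 7 was higher (Il1rap, against 9.20%) and 0 lower (6.59%), a share near the background. CD8 T cells had 0 of 8 higher (2.53% of genes) and 1 lower (Il1r2, against 5.10%).

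The smaller classes had few calls. In cDC1, 2 of 5 measured members were higher (Nlrp3 and Casp4, against 6.64% of 6988 genes) and 0 lower (2.46%). In cDC2, 1 of 8 was higher (Il1rap, against 8.46%) and 0 lower (2.48%). Mature DCs had 0 of 6 higher (6.79%) and 0 lower (2.87%). CD4 T cells had 0 of 4 in either direction (15.5% and 8.17%), regulatory T cells 0 of 2 (5.75% and 4.59%) and B cells 0 of 1 (9.62% and 4.95%). NK cells had 0 of 5 higher (4.35%) and 1 lower (Il1b, against 2.37%). Their Il1b was at 10.4 and 41.4 CPM, with 97.8% of the WT UMIs in 10 cells, and the log2 ratio went from -1.99 to 0.04 with doublets kept. Non-classical monocytes, 121 and 66 cells, had 0 of 5 higher (9.84%) and 2 lower (Il1b and Nlrp3, against 7.58%). Their Il1b was at 202 (170 to 239) and 895 (813 to 984) CPM, with 85.8% of the WT UMIs in 10 cells. With clusters in place of gates the Il1b log2 ratio went from -2.15 to -0.47, which ends the call, and that of Nlrp3 from -0.97 to 0.44. The neutrophil marker list summed to 244 and 750 CPM in that class, with 6 and 7 of its 8 markers detected, and its part in the result was not tested.

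The gates cross the clusters that were made without the members. Cluster 1, which has the monocyte marker Ccr2 among its leading genes and lies mostly in the monocyte gate, also gave 19.0% of knockout and 4.42% of WT cells of the macrophage gate. Those cells held 2230 of the 5501 knockout and 1172 of the 5567 WT Il1b UMIs of that gate. The monocyte gate took cells of cluster 12, with the non-classical monocyte markers Ace and Treml4 among its leading genes. It also took cells of cluster 5, most of whose cells were gated as macrophages. In the macrophage gate, 3.77% and 5.08% of cells fell in cluster 11, led by haemoglobin genes. Values are therefore given by cluster beside those of the gate.

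**Figure D3:**
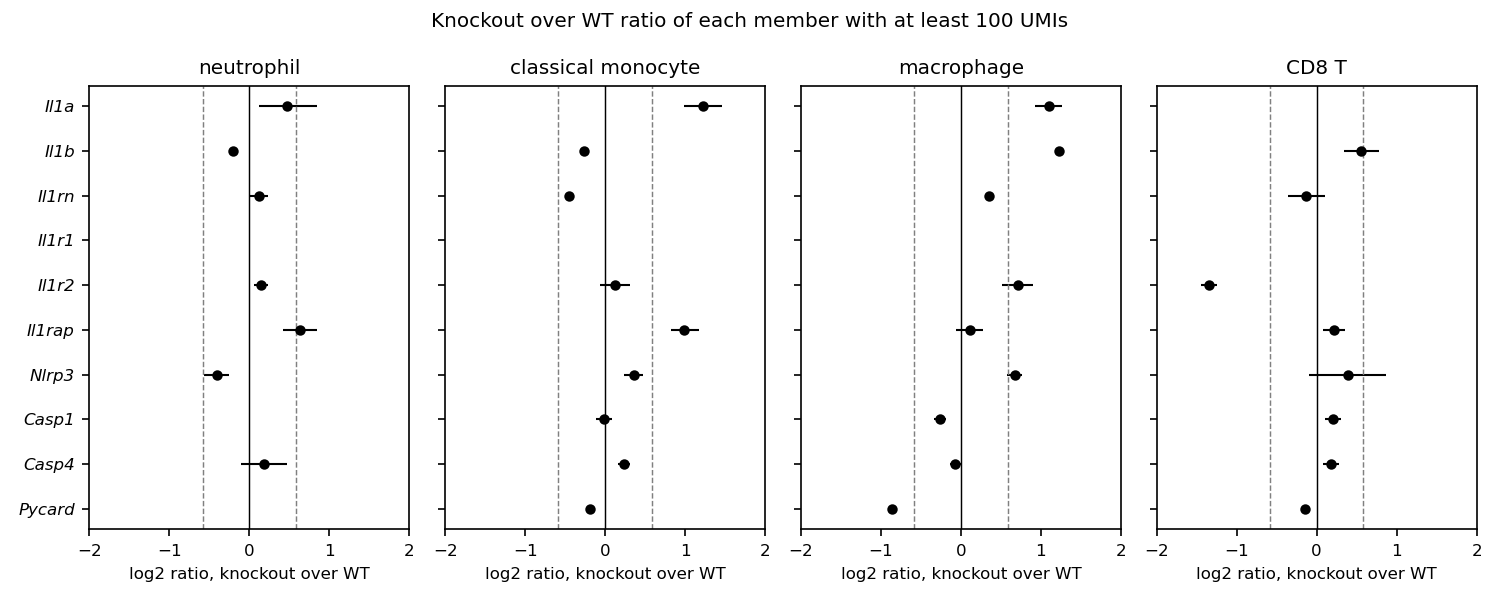
Log2 ratio of knockout over WT for each member with at least 100 UMIs in 4 classes, with exact 95% intervals for counting error; dashed lines mark 1.5-fold. Il1a, Il1b, Il1r2 and Nlrp3 lie beyond the right line and Pycard beyond the left line in macrophages, and Il1r2 lies at -1.34 in CD8 T cells.

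In macrophages Il1b was at 185 (180 to 190) CPM in the knockout library and 79.3 (77.3 to 81.5) in WT, a log2 ratio of 1.22 (1.17 to 1.28). Il1b UMIs were found in 34.9% and 21.9% of these cells. After thinning each cell to 2000 UMIs, which left out 45 and 157 cells, they were found in 243 of 1520 and 243 of 2877 cells, intervals of 14.2 to 17.9% and 7.46 to 9.52%. Thinned CD8 T cells, which should lack the transcript, had a UMI in 1.37% and 1.03%. The medians before thinning were 16429 and 20512 UMIs in macrophages and 17969 and 21206 in CD8 T cells. The neutrophil marker list summed to 89.0 and 76.9 CPM in macrophages and to 8.75 and 19.4 CPM in CD8 T cells. Whether the CD8 T background holds for macrophages was not tested. The macrophage gate was a mixture of 8 clusters with at least 50 of its cells in each library, and 6 of them had enough Il1b UMIs for a ratio. Il1b was higher in the knockout library in all 6, by at least 1.5-fold in 4, and in cluster 1 by less than counting error. The values were 502 and 308 CPM in cluster 0, and 49.7 and 23.4 CPM in cluster 3, which leads with Negr1, Psd3 and Prune2. In cluster 7, led by Gdf15 and Ifnb1, they were 26.4 and 14.7 CPM, and in cluster 17, led by Lipg and Negr1, 22.7 and 14.8 CPM. Free RNA, estimated at 3.78% of cell UMIs in each library, itself held Il1b at 278 and 155 CPM. It was not subtracted from the cluster values, and its part in the ratios of clusters 3, 7 and 17 was not tested. In cluster 1, the cluster named for monocytes and led by Spon1, Retnla and Ly6i, Il1b was at 454 and 440 CPM. With every cluster weighted alike the log2 ratio of the class was 0.36, under the 1.5-fold rule, so much of the class value moved with the shares of the clusters.

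Il1b did not share this direction in the other phagocyte classes that were compared. In classical monocytes its log2 ratio was -0.26 (-0.30 to -0.22), and 4 of 5 clusters were lower in the knockout library. Cluster 0 was the exception, at 798 and 671 CPM, and cluster 1 stood furthest the other way, at 573 and 917 CPM. In neutrophils the log2 ratio was -0.20 (-0.24 to -0.16). The 8 neutrophil markers summed to 52706 and 52072 CPM there, all 8 detected in both libraries, and to 89.0 and 76.9 CPM in macrophages. In cDC2 the Il1b log2 ratio was -0.47 (-0.60 to -0.34), but the 10 cells with the most Il1b held 43.8% and 75.1% of the UMIs, and without them it was 0.51. Mature DCs were at -0.48 (-0.61 to -0.36), without a call. Cells whose best marker score was under the gate were not compared as a class. They held 8948 and 3037 Il1b UMIs among 14621477 and 7797645 UMIs, a higher level in the knockout library.

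Il1a encodes the ligand that also acts from the cell surface and on release from dying cells. It was far less abundant than Il1b: 204 (179 to 231) and 147 (118 to 180) CPM in neutrophils, 32.9 (30.7 to 35.2) and 14.1 (12.2 to 16.4) in classical monocytes, and 19.4 (17.9 to 21.1) and 9.08 (8.39 to 9.81) in macrophages. The intervals of the libraries did not overlap in monocytes or macrophages, where the log2 ratios were 1.22 (0.98 to 1.46) and 1.10 (0.93 to 1.26). Few cells carried it. Il1a UMIs were in 6.80% and 4.46% of monocytes, and 10 cells held 34.6% and 70.7% of the monocyte UMIs. Cluster 0 was high in either gate, at 103 and 38.1 CPM among its monocytes and at 115 and 59.0 CPM among its macrophages. Of the 3 macrophage clusters with enough Il1a UMIs, 2 were higher by at least 1.5-fold, and cluster 5 was at 8.72 and 9.50 CPM, a difference within counting error. Elsewhere in the monocyte gate Il1a was at 11.1 CPM or less.

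Il1rn, the antagonist gene, had another distribution. It was at 1765 and 1620 CPM in neutrophils, 317 and 433 CPM in classical monocytes and 251 and 197 CPM in macrophages. The log2 ratio was -0.45 (-0.50 to -0.40) in monocytes and 0.35 (0.30 to 0.39) in macrophages, with no call in any of the classes measured. Within the monocyte gate, cluster 0 stood highest and was lower in the knockout library, at 750 and 1072 CPM. Of the 5 monocyte clusters, 2 were lower and 3 higher, with clusters 12 and 13 within counting error. Within the macrophage gate, cluster 0 (725 and 798 CPM) and cluster 7 (541 and 343 CPM) stood highest, and 5 of 7 measured clusters were higher in the knockout library, 3 by at least 1.5-fold. Agonist and antagonist can be read together as Il1b UMIs per Il1rn UMI. That ratio was 6.36 (6.08 to 6.66) and 7.96 (7.45 to 8.50) in neutrophils, 1.75 and 1.53 (1.48 to 1.59) in monocytes, and 0.739 (0.714 to 0.765) and 0.402 (0.390 to 0.415) in macrophages. Macrophages were the class with more antagonist than Il1b transcript among the 5 classes so compared, in both libraries. Genes differ in length and capture, so the order of classes is easier to read than the ratio itself.

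Il1r1, the signalling receptor, was near absent from these CD45+ cells, at 1.37 (1.19 to 1.56) and 1.23 (1.06 to 1.41) CPM. Neutrophils had 0 UMIs in either library, which at 3 counts allows up to 2.45 and 4.84 CPM. Monocytes had 20 and 30 UMIs and macrophages 21 and 59, so no class reached the 100 UMIs for a ratio. Gamma-delta T cells, 31 and 24 cells and so too few for a comparison, stood highest at 40.1 and 109 (68.8 to 163) CPM, from 11 and 23 UMIs.

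Il1r2, the decoy receptor, had its highest levels among the compared classes in neutrophils and cDC2. It was at 2800 (2707 to 2895) and 2527 (2404 to 2656) CPM in neutrophils and at 394 (378 to 410) and 352 (326 to 380) CPM in cDC2, with 92.8% and 94.2% of neutrophils carrying a UMI. The log2 ratios, 0.15 and 0.16, did not reach the 1.5-fold rule. T cells had less. CD8 T cells were at 23.1 (21.9 to 24.4) and 58.7 (56.6 to 60.9) CPM, a log2 ratio of -1.34 (-1.44 to -1.25). Il1r2 UMIs were in 14.2% and 30.4% of CD8 T cells, and in 2.91% (2.28 to 3.67) and 7.41% (6.25 to 8.70) after thinning. Free RNA accounted for an estimated 8.68% and 2.48% of the level.

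The lower Il1r2 level of knockout CD8 T cells was seen in each of the 3 clusters with enough UMIs. It was at 62.7 and 126 CPM in cluster 6, which leads with granzyme genes Gzmg, Gzmd and Gzme, a log2 ratio of -1.01 (-1.14 to -0.88). It was at 21.3 and 35.5 CPM in cluster 2, led by histone genes and Ube2c of dividing cells. In cluster 14, led by Cit and Neil3, it was at 7.77 and 30.4 CPM. Cluster 9, led by Tcf7, Sidt1 and Lef1 among named genes, had 0 and 2 UMIs. The granzyme cluster with the highest Il1r2 level made up 18.3% of knockout and 31.6% of WT CD8 T cells, and with the 5 clusters weighted alike the log2 ratio was -1.10. Regulatory T cells were at 71.2 (59.5 to 84.6) and 85.9 (70.1 to 104) CPM and CD4 T cells at 59.5 and 43.8 CPM, with intervals that overlapped. The T cells of mixed markers, not compared as a class, were at 31.4 (27.2 to 36.1) and 58.9 (50.2 to 68.7) CPM. Macrophages were at 12.1 (10.9 to 13.4) and 7.41 (6.79 to 8.08) CPM, called higher with a log2 ratio of 0.71. That ratio was under the rule with 4 of 12 other processing settings, and with clusters weighted alike it was -0.15. Gm16894 lies antisense to Il1r2 and the sources used here do not give the strand setting of the counting, so reads of the pair may not be separated. The same holds for Il1a with Gm14023, Il1b with Il1bos and Il1rap with Gm20319.

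**Figure D4:**
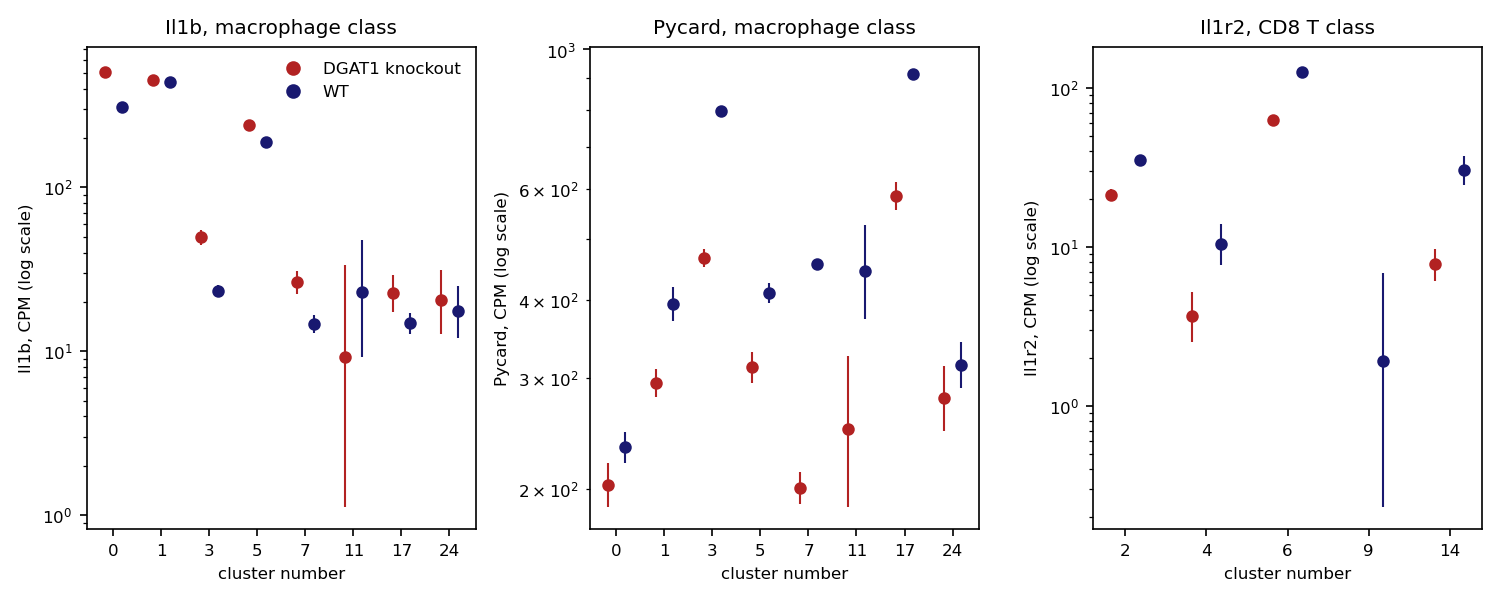
CPM (log axis) of Il1b and Pycard in the macrophage gate and of Il1r2 in the CD8 T gate, by cluster with at least 50 gated cells in each library; red is the knockout and blue the WT library, bars are exact Poisson 95% intervals, and 0 UMIs gives no point. Pycard was lower in the knockout library in all 8 macrophage clusters, and Il1r2 in the 3 CD8 T clusters with at least 100 UMIs (2, 6 and 14).

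Il1rap, the accessory chain shared with other receptors of the family, was called higher in classical monocytes, neutrophils and cDC2 of the knockout library. Classical monocytes were at 52.8 and 26.6 CPM, a log2 ratio of 0.99 (0.82 to 1.17), with 4 of 5 clusters higher by at least 1.5-fold and cluster 5 within counting error, at 32.8 and 29.2 CPM. Cluster 13, led by Hp, Plcb1 and Vcan, was highest at 137 and 81.4 CPM. Neutrophils were at 607 (564 to 652) and 392 (344 to 445) CPM, a log2 ratio of 0.63 (0.42 to 0.84). That ratio was under the rule with 4 of 11 other processing settings, and lowest, at 0.18, when cells were thinned. In cDC2 it was at 26.2 (22.2 to 30.7) and 14.5 (9.55 to 21.1) CPM, from 152 and 27 UMIs. The macrophage values of 14.1 and 13.1 CPM had overlapping intervals.

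Nlrp3, the sensor, had the same order as Il1b over neutrophils, monocytes and macrophages. It was at 643 (599 to 690) and 854 (783 to 930) CPM in neutrophils, 87.8 (84.2 to 91.6) and 68.6 (64.1 to 73.3) in classical monocytes and 57.7 (55.0 to 60.4) and 36.2 (34.8 to 37.7) in macrophages. The neutrophil log2 ratio was -0.41 (-0.57 to -0.25) and that of monocytes 0.36 (0.24 to 0.47), neither called. In macrophages it was 0.67 (0.58 to 0.76), with all 6 measured clusters higher, 2 of them by at least 1.5-fold and cluster 5 within counting error (0.12, -0.13 to 0.36). The macrophage ratio was under 1.5-fold with 3 of 12 other processing settings, and lowest, at 0.44, with clusters weighted alike. In cDC1 Nlrp3 was at 49.6 (41.6 to 58.7) and 24.6 (19.6 to 30.3) CPM, called higher together with Casp4 at 54.7 (46.3 to 64.3) and 23.7 (18.9 to 29.4) CPM. These rest on 135 and 86 Nlrp3 UMIs in 129 and 151 cells, and with cells thinned to 2000 UMIs the Casp4 log2 ratio went from 1.21 to 0.52, under the rule.

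Casp1 and Casp4, neighbours on chromosome 9 with 1562 bases between them, differed by less than 1.5-fold between the libraries in the large classes. Casp1 was at 97.8 and 98.9 CPM in classical monocytes, 74.4 (71.3 to 77.5) and 88.9 (86.7 to 91.1) in macrophages and 34.6 and 29.9 in CD8 T cells. It was lower in the knockout library in 6 of 7 measured macrophage clusters, by at least 1.5-fold in cluster 0 alone (56.3 and 86.8 CPM). Of 4 measured CD8 T clusters 3 were higher, none by 1.5-fold, and cluster 2 differed most, at 37.9 and 25.5 CPM. Casp4 was at 267 and 236 CPM in neutrophils, 199 and 169 in monocytes and 81.2 and 85.1 in macrophages. Casp1 was not called in any class, and Casp4 in cDC1 alone among the 12 classes. In neutrophils, where Il1b was highest, Casp1 was listed with only 51 and 25 UMIs (41.6 and 40.3 CPM).

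Pycard, the adaptor gene, was ordered opposite to Il1b over the same 3 classes. Neutrophils were lowest, at 35.1 (25.4 to 47.2) and 69.4 (50.2 to 93.5) CPM from 43 UMIs in each library, too few for a call. Classical monocytes were at 279 (273 to 286) and 318 (308 to 327) CPM. Macrophages were at 338 (332 to 345) and 616 (610 to 622) CPM, a log2 ratio of -0.86 (-0.90 to -0.83). The gap ran through the class: Pycard was lower in all 8 macrophage clusters, by at least 1.5-fold in 4, and the median cell held 2.23 and 3.82 UMIs per 10000. It was widest in cluster 7, at 201 and 455 CPM, and narrowest in cluster 24, led by Ednrb, Cbr2 and Gas6, at 279 and 315 CPM with overlapping intervals. After thinning, 37.8% (35.3 to 40.3) and 54.5% (52.7 to 56.3) of macrophages had a Pycard UMI. Weighted alike, the clusters gave -0.61. Outside macrophages no class had a Pycard call: CD8 T cells were at 178 and 197 CPM (log2 ratio -0.15), and cDC1 at 138 and 138 CPM. Gm45205 overlaps Pycard on the other strand, with the same limit as for Il1r2. The 6 macrophage markers summed to 8387 and 10895 CPM in the class and the 6 melanoma markers to 71.2 and 169 CPM; their part in the Pycard gap was not tested.

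A list of 50 further genes of the pathway was counted in the same classes. In macrophages 45 were measured, 7 higher and 1 lower, with a median log2 ratio of 0.05 beside -0.00 over all genes and calls of 5.36% higher and 4.30% lower. The higher ones were Ptgs2, the inducible prostaglandin synthase, at 133 and 64.2 CPM, the neutrophil attractant Cxcl2 at 186 and 118 CPM, and Tlr2, a receptor of bacterial lipoproteins, at 61.6 and 35.4 CPM. Also higher were Il1rl2, a receptor of IL-36, at 6.97 and 2.14 CPM, Il18rap at 7.78 and 3.63 CPM and Il6, at 2.53 times its WT level, and Mefv, the gene of the sensor pyrin, at 1.68 times. Serpinb1a, an inhibitor of neutrophil proteases, was lower at 1.11 and 1.77 CPM. None of the 10 genes of the receptor's signal chain passed 1.5-fold in macrophages, where all were measured, with Myd88 at 48.8 and 52.7 CPM.

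Classical monocytes had 44 of the 50 measured, with 3 higher and 3 lower, beside 4.62% and 2.59% of all genes. Il6 was at 10.8 and 3.52 CPM, Il1rl2 at 6.80 and 2.34 CPM and Il18r1 at 2.15 times its WT level. Il18bp, which neutralises IL-18, was lower at 41.2 and 74.1 CPM, as were Cxcl1 at 4.34 and 7.03 CPM and Serpinb1a at 4.46 and 8.52 CPM. Neutrophils had 26 measured, 3 higher and 1 lower beside 9.20% and 6.59% of all genes, with Tlr2 at 228 and 110 CPM, Tlr4 at 433 and 287 CPM and Il18 at 104 and 61.3 CPM higher, and Gsdme, a pore-forming gasdermin, lower at 42.4 and 79.1 CPM. In CD8 T cells 42 were measured, 1 higher and 1 lower beside 2.53% and 5.10%, with Il1rl1, the IL-33 receptor, higher at 4.38 and 1.68 CPM and Serpinb1a lower at 4.30 and 6.55 CPM. In cDC1 27 were measured, 5 higher and 0 lower beside 6.64% and 2.46%, among them the NF-kB inhibitor genes Nfkbia at 198 and 110 CPM and Tnfaip3 at 59.5 and 32.0 CPM.

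The genes whose levels followed a member most closely were found by Pearson's r of log2(CPM + 1) over 30 profiles, 15 classes in 2 libraries. They share libraries and depth, so r is a description. Snap23, Mcl1, Irf1, Mcemp1 and Neat1 came nearest to Il1b, with r from 0.912 to 0.933. Macrod2, Cd14, Ptafr, Ier3 and Clec4d came nearest to Il1rn (0.900 to 0.904). F630028O10Rik, Socs3, Slc31a2, Cd300lf and Ndel1 came nearest to Nlrp3 (0.905 to 0.924). For Il1r2 the nearest were its antisense neighbour Gm16894 (0.858), Junb, Gm4107, Isg20 and S100a11.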

How the data were processed

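The authors deposited counts: unfiltered UMI counts of each gene in each barcode, written by Cell Ranger 7.2.0 per the file headers and on the mm10 build per the submitters' processing notes. The sources used here do not give strand setting or annotation. Cells were barcodes above a UMI threshold (11888 and 17765) or, from 500 UMIs, differing from free RNA (10000 simulations, false discovery rate 0.01), with at least 250 genes and at most 10% mitochondrial UMIs. Scrublet (scanpy 1.11.5) removed 368 and 182 doublets (3.25% and 1.97%). The libraries shared 25 kept barcodes.

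A class needed a mean marker score of 0.25 and a margin of 0.05. Clusters (Leiden, leidenalg 0.10.2, resolution 1.5) used 2000 variable genes without the members. T cells with mixed CD4, CD8 or Foxp3 counts, low-scoring cells (1652 and 890) and cells near a second class (338 and 287) were not compared. Free RNA was estimated at 3.78% of UMIs in each library from melanoma genes in T cells, and 1.94% and 1.77% from C1q genes. The count intervals were tried on simulated Poisson counts and the cell calling on simulated barcodes. Those counts had no UMIs gathered in few cells, so they do not cover that limit. Gates, clusters and class mix were not simulated.

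Named were all members in classes with at least 50 cells per library, pathway genes with at least 100 UMIs and 1.5-fold, and the 5 genes of highest r for 4 members. Only some are printed. Members, lists and alternatives were chosen with earlier results of these data known, and the gate and cluster settings after the files were seen. Gene positions are from GENCODE M21 (mm10).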

Additional observations from a re-analysis of the deposited data

Results flagged for a closer look

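Among members called in at least 1 of the 3 largest classes, Il1b and Il1r2 differed in opposite directions between these classes, with intervals that excluded 0 on either side. Il1rn and Casp1, without a call there, also lay on both sides of 0. Il1rn was at -0.45 in classical monocytes and 0.35 in macrophages, and Casp1 at -0.26 in macrophages and 0.21 in CD8 T cells. For Il1rn, however, 3 of 5 monocyte clusters were higher in the knockout library, and cluster 0 was lower in either gate. The Il1b log2 ratio of knockout over WT was 1.22 in macrophages and -0.26 in classical monocytes. The Il1r2 log2 ratio was 0.71 in macrophages and -1.34 in CD8 T cells. With 1 library per group the difference between the classes was not tested. With clusters weighted alike the macrophage values were 0.36 for Il1b and -0.15 for Il1r2.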

How the results depend on the processing

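The 69 log2 ratios were recomputed under 12 alternatives, 1 of them, clusters weighted alike, chosen after seeing the data: 600 of 771 values stayed within the interval for counting error, 166 moved outside it and 5 reversed a call. Of 15 calls, 7 stayed past 1.5-fold under every alternative that gave a value: Il1a and Il1rap in classical monocytes, Il1a and Pycard in macrophages, Il1r2 in CD8 T cells, Il1rap in cDC2 and Nlrp3 in cDC1. The reversed values were Il1b in NK cells (0.04 with doublets kept, 2.52 without the 10 cells with the most UMIs), Nlrp3 in non-classical monocytes (0.44 by clusters, 0.48 without the 10 cells) and Il1r2 in macrophages (-0.15 with clusters weighted alike). For Il1b in neutrophils the log2 ratio of -0.20 became 3.50 with only barcodes above the UMI threshold, which left 12 and 2 cells, and -0.27 at 5% mitochondrial UMIs, -0.40 with stricter gates, -0.34 by clusters and -0.14 without the 10 cells. In classical monocytes -0.26 became -0.20, -0.22, -0.14 and, scaled by the median of all genes, -0.34, for the threshold, 5% mitochondrial, 10-cell and scaling settings in that order. In macrophages 1.22 became 1.59 (threshold), 1.34 (5% mitochondrial), 1.31 (stricter gates), 0.96 (thinned), 0.98 (by clusters), 1.01 (cells weighted alike) and 0.36 (clusters weighted alike). In cDC2 -0.47 became 0.06 (stricter gates), -0.02 (thinned), -0.21 (by clusters), -0.10 (cells weighted alike) and 0.51 (without the 10 cells). Apart from the clusters weighted alike and the neutrophil barcodes left by the threshold, the cause of these moves was not tested. Scaling by the median of all genes shifted classical monocytes by 0.08 and cDC2 by 0.11. With a minimum of 20 UMIs, the number of calls changed in every class compared except macrophages. The largest changes were higher calls in cDC1 from 2 to 5, lower calls in Treg cells from 0 to 3, and higher calls in mature DCs from 0 to 2. The share of all genes past 1.5-fold was not counted at that minimum, so these counts have no background beside them. No paired analysis was possible because each group has 1 library. No ratio was available for 8 of 10 members in Treg cells and 9 in B cells at 100 UMIs.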

Other observations

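Mature DCs held 44 and 6 UMIs of Il1r1, the signalling receptor, 10.7 (7.75 to 14.3) and 2.41 (0.883 to 5.24) CPM, with 95.5% of the knockout UMIs in 10 cells. Casp1 in regulatory T cells was at 14.2 (9.30 to 20.9) and 29.2 (20.3 to 40.6) CPM from 26 and 35 UMIs. Both had too few UMIs for a call. Cells whose best marker score was under the gate held 33.6% and 29.6% of Il1a UMIs and 23.7% and 13.1% of Il1r2 UMIs, more than their 15.4% and 10.5% of CD45+ cells.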
